A study of Mus musculus with 12 samples.

Results

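The comparison described here is that of the silencing vector with the null vector in mice kept on the Western diet, and it covers 6 of the 12 libraries of the study, with all genes of the table. Its members were chosen by their labels: the 3 libraries labelled as Western diet with the siAATF vector (Western siAATF) and the 3 labelled as Western diet with the control vector (Western null). All libraries were from livers of male C57Bl/6NCrl mice (strain label C57bl/6). Feeding with the Western diet and sugar water, which induces metabolic dysfunction-associated steatohepatitis, began at the age of 6 weeks. After 12 weeks the mice were given AAV8 particles by tail vein, and they were kept for 12 weeks more. Western null (genotype label WT) received AAV8-TBG-Null and Western siAATF (genotype label KD) received AAV8-TBG-siAATF, so diet, injection and viral backbone were common to both. TBG is a promoter that is active in hepatocytes, whereas the RNA was that of liver tissue. The labels number the replicates and name no animal, so the p-values measure the spread between these samples, which may be technical in part. The other 6 libraries, 3 from each vector on chow with normal water, entered the fit for its estimate of the spread.

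Aatf encodes a nucleolar protein that takes part in ribosome assembly and acts as a co-regulator of transcription, and it is known for roles in cell cycle arrest and survival. In a liver with steatohepatitis, hepatocytes store lipid droplets, macrophages that take up lipid appear beside the resident Kupffer cells, and stellate cells lay down collagen. Hepatocytes of male mice also keep a set of male-biased genes under the pulsed secretion of growth hormone, and many of these are lowered in a fatty, inflamed liver.

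Counts per library ran from 1646853 to 8917363 in Western null and from 1989409 to 7614183 in Western siAATF, and the 18S ribosomal RNA gene took between 0.871% and 50.8% of them. Levels are given as CPM, counts scaled to the same library size in every library. For a library listed at 0, the limit that a count of 0 allows (3 counts) lay between 0.269 and 1.48 CPM, for counting error only. Hepatocyte markers were high in all 6 libraries (5 of 6 markers matched, summed level 43324 to 48917 CPM in Western null and 40166 to 48179 in Western siAATF). The 3 Western siAATF libraries differed more among themselves than the 3 Western null libraries did: the rank correlation of log CPM between pairs was 0.935, 0.908 and 0.863 against 0.943, 0.962 and 0.962.

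The Western siAATF libraries stood apart from each other. Replicate 1 held transcripts of skeletal muscle: the 4 muscle markers Acta1, Myh4, Ckm and Tnnt3 summed to 1722 CPM there, to 3.18 in replicate 2 and to 0 in replicate 3 and in each Western null library. Replicates 1 and 2 held transcripts of neutrophils: 5 markers of neutrophils and monocytes, S100a9 among them, summed to 82.7 and 121 CPM there. That sum was 3.08 in replicate 3 and 9.38 to 16.01 in Western null. Replicate 3 held Cfd, the adipsin gene of adipocytes, at 102 CPM against 2.43 to 5.11 in the other 5 Western libraries, while the adipocyte markers Adipoq, Plin1, Retn and Lep were at 0 in it. It also stood far above the others in genes of fatty acid oxidation, described below. For each list with a call, its count is given with and without the libraries that move it, and the part that cells of other tissues had in any result was not tested.

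Aatf itself (chromosome 11, 84313682 to 84404433, minus strand, build GRCm39 as in the table) stood at 27.6, 21.1 and 30.0 CPM in Western null and at 27.0, 27.5 and 28.2 in Western siAATF. The groups overlapped, and the libraries labelled siAATF showed no lower level of Aatf (log2 fold change 0.06 ± 0.25, adjusted p = 0.953, edgeR's quasi-likelihood test). The 95% interval reached from 72.2% to 151% of the null level, and without Western null replicate 2 the estimate turned to -0.09. Gene spans were counted with their introns. Directions below rest on the labels, since no fall of the target was measured.

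In the libraries labelled siAATF, 9 of 20 genes of lipid-laden macrophages, 4 of 7 of MHC class II and 6 of 19 glutathione S-transferase genes were lower. Higher were 5 of 36 genes with male-biased expression in liver. With 1 library left out these counts ranged from 4 to 9, 2 to 4, 2 to 10 and 1 to 11. The lists had been chosen with earlier results of these data known. Of 11934 genes tested, 104 passed (0.871%), 37 of them higher (0.31%) and 67 lower (0.561%) in Western siAATF (threshold of 0.05 on the p of edgeR's quasi-likelihood test after Benjamini-Hochberg adjustment). Without this adjustment 1271 genes had p under 0.05. Leaving aside genes with at most 3 counts in a group, log2 fold changes of the called genes ran from -6.04 (Gpnmb) to 6.54 (Hsd3b5), where the median over all genes tested was 0.06. In 103 of the 104 all 3 Western siAATF libraries lay on the same side of all 3 Western null libraries. Calling genes from these same libraries favours this, so it is no separate support. Over all genes tested, 7.69% had them all higher and 7.87% all lower.

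The count of calls depended on the libraries used. It fell to 6 higher and 20 lower without Western null replicate 1, 12 and 35 without replicate 2, 11 and 17 without replicate 3, 18 and 25 without Western siAATF replicate 1 and 27 and 40 without its replicate 2. Without Western siAATF replicate 3 it rose to 201 higher and 212 lower (3.34% of 12379 genes), and 103 of the 104 genes were among these 413. The exception was Scnn1a, a subunit of the epithelial sodium channel (adjusted p = 0.0506 without that library). Whichever of the 6 libraries was left out, 21 genes were called: Adgrv1, Anxa5, Apoa4, Cadm4, Cd63, Ces3b, Ephb2, Gpnmb, Grm8, Gstm3, H2-Aa, H2-Eb1, Haus8, Hsd3b5, Mgst3, Mmp12, Nid1, Nrg1, S100a11, Sult2a8 and Tubb2a.

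**Figure D1:**
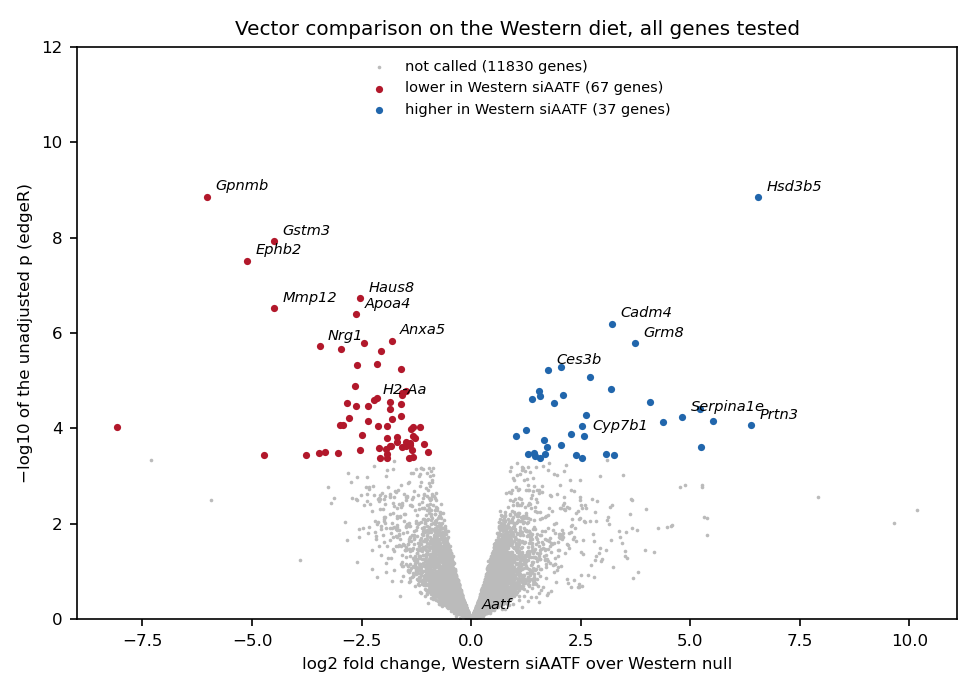
Log2 fold change of each gene tested (x axis, Western siAATF over Western null) against −log10 of its unadjusted p from edgeR (y axis), with the 67 lower genes in red and the 37 higher genes in blue. Gpnmb at -6.04 and Hsd3b5 at 6.54 lie highest, Aatf lies near the origin at 0.06, and the point farthest to the left, Gsta1, had 0 counts in Western siAATF, so that its place on the x axis is a fitted value only.

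Genes of lipid-associated macrophages, the phagocytes that collect around lipid-laden hepatocytes, gave more calls than any other of 48 gene lists. The lists were chosen with earlier results of these data known, so this rank is a description and not a test. Of 20 such genes tested, 9 were lower and 0 higher, against 0.561% and 0.31% of all genes, and the median log2 fold change was -1.36. Gpnmb, a transmembrane glycoprotein of these cells (chromosome 6, 49013449 to 49044413, plus strand), stood at 43.0, 48.0 and 51.9 CPM in Western null and at 0.885, 0.681 and 0.440 in Western siAATF. All 3 libraries labelled siAATF were far below all 3 null libraries (log2 fold change -6.04 ± 0.50, adjusted p = 8.39e-06). Mmp12, the macrophage elastase (chromosome 9, 7344397 to 7360461, plus strand), stood at 23.7, 19.8 and 27.2 CPM in Western null and at 0.663, 2.04 and 0 in Western siAATF (-4.49 ± 0.55, adjusted p = 0.000606). Its lowest library was replicate 3, which is listed at 0, and the groups did not overlap. Trem2, the lipid-sensing receptor of these cells, stood at 15.8, 21.5 and 17.2 CPM in Western null and at 3.98, 1.59 and 1.76 in Western siAATF (-2.84 ± 0.50, adjusted p = 0.0102). Spp1, which encodes osteopontin, stood at 199, 88.3 and 167 CPM in Western null and at 18.6, 38.1 and 15.4 in Western siAATF (-2.64 ± 0.45, adjusted p = 0.0107), with the highest Western siAATF library below the lowest null library.

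The remaining called genes of the group fell less. Cd63, a tetraspanin of late endosomes, stood at 27.2, 32.4 and 28.1 CPM in Western null and at 8.62, 6.13 and 6.16 in Western siAATF (-2.05 ± 0.29, adjusted p = 0.00207). Anxa5, whose product binds exposed phosphatidylserine, stood at 340.2, 201 and 249.8 CPM in Western null and at 61.3, 69.0 and 94.6 in Western siAATF (-1.82 ± 0.25, adjusted p = 0.00179). The galectin genes Lgals1 and Lgals3 had log2 fold changes of -2.12 ± 0.41 and -1.92 ± 0.37. Capg, an actin-capping protein of macrophages, had -1.91 ± 0.44. Of the span of Lgals1, 34.0% overlaps another gene. Lgals1 was higher in Western siAATF replicate 3 (23.8 CPM) than in replicates 1 and 2 (7.96 and 6.13 CPM), and Lgals3 was lowest there (2.64 against 10.2 and 9.08 CPM). Of the 20 genes of the list, 16 had estimates below 0 and 4 above. Fabp5, a fatty acid binding protein, was among those above 0 and did not pass (1.34 ± 0.40, adjusted p = 0.165). The count of 9 became 5, 5 and 4 without Western null replicates 1, 2 and 3, 6 and 7 without Western siAATF replicates 1 and 2, and 9 without its replicate 3.

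Markers shared by all macrophages gave no call: of 14 tested, 0 passed in either direction (median -0.41, 11 estimates below 0 and 3 above). The summed level of the 7 defining markers, Adgre1, Csf1r and the C1q genes among them, ran from 524 to 842 CPM in Western null. In Western siAATF it was 705, 502 and 330.1 CPM in replicates 1, 2 and 3. The 5 lipid-associated markers summed to 204 to 319 CPM in Western null and to 34.8 to 55.1 in Western siAATF, beside 9.03 to 26.7 in chow null. Of 9 Kupffer cell genes 1 passed: Cd163, a haemoglobin scavenger receptor, was higher at 20.1, 17.0 and 4.40 CPM against 1.97, 3.75 and 1.98 (2.52 ± 0.57, adjusted p = 0.0485), with 37.0% of its span overlapping another gene. Without Western siAATF replicate 1, without its replicate 2, or without any 1 of the Western null libraries, 0 Kupffer genes passed, and without Western siAATF replicate 3 there were 2 (Cd163 at 2.89 ± 0.49 and Timd4 at 2.64 ± 0.65). Timd4, a phosphatidylserine receptor of resident Kupffer cells, stood at 2.96, 1.36 and 0.988 CPM in Western null and at 9.51, 9.30 and 6.16 in Western siAATF (2.48 ± 0.64, adjusted p = 0.0933 with all libraries). Marco, a scavenger receptor, was high in replicates 1 and 2 alone (180.2, 99.9 and 6.60 CPM, against 2.96, 7.84 and 2.42 in Western null; adjusted p = 0.266). Clec4f, which defines Kupffer cells, did not pass (0.17 ± 0.37, adjusted p = 0.907). Cd207, the lowest gene of the list, did not pass either (-2.62 ± 0.75, adjusted p = 0.144, edgeR). It stood at 10.4, 14.7 and 7.27 CPM in Western null and at 1.99, 2.27 and 0.440 in Western siAATF. Among the 9 Kupffer cell genes 6 estimates lay above 0 and 3 below (median 0.65). In whole liver, fewer cells of a type and less RNA per cell cannot be told apart.

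**Figure D2:**
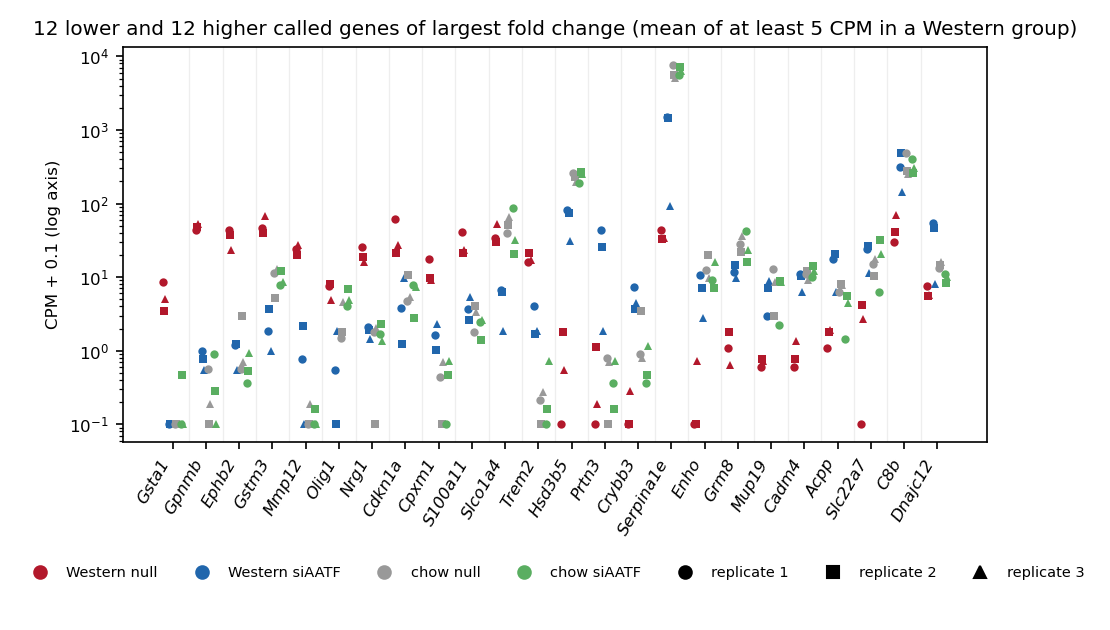
CPM plus 0.1 of every library (log axis; colour gives the group, symbol the replicate number) for the 12 lower and 12 higher called genes of largest fold change whose mean reached 5 CPM in either Western group, without predicted genes. The blue points of Western siAATF lie below the red points of Western null in the left 12 genes and above them in the right 12, grey and green points are the chow libraries with the null and the siAATF vector, and Serpina1e, Prtn3 and Dnajc12 show replicate 3 of Western siAATF below replicates 1 and 2.

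AP-1 is the dimer of Jun and Fos proteins. Jun was among the lower genes, Fos did not pass, and the part of AP-1 in any fall was not tested. AP-1 binds promoters at the letters TGAGTCA. The promoters of 3 lower genes that hold these letters are shown; they were chosen after the search. These are 250 bases before to 50 after the annotated start, 5′ to 3′ along the gene, from RefSeq on GRCm38.p6 (the counts use GRCm39), with these letters in capitals, or TGACTCA where they lie on the other strand. Gpnmb (chr6:49036268-49036567, plus strand) has them from base 9 after the start, on the minus strand. Mmp12 (chr9:7347124-7347423, plus strand, 1 of 2 listed promoters) has them 44 bases before the start. S100a11 (chr3:93520246-93520545, plus strand) has them 136 and 38 bases before it.
Gpnmb: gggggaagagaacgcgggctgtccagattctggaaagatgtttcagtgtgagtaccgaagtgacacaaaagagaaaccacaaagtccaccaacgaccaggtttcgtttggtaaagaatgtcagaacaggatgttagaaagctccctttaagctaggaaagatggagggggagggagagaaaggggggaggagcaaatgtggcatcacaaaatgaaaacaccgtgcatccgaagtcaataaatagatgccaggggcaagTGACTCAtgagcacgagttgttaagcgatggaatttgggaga
Mmp12: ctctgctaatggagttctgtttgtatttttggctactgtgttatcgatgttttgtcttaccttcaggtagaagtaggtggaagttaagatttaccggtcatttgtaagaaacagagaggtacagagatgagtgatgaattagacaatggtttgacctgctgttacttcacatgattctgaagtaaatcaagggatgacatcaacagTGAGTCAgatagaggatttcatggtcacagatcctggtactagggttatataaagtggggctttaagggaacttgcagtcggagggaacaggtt
S100a11: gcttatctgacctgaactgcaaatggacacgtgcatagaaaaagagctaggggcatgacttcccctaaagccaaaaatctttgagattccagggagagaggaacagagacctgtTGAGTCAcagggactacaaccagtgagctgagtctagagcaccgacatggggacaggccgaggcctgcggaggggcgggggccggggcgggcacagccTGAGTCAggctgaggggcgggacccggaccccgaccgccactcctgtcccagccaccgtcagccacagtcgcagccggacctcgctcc
A promoter was found for 77 of the 104 called genes. TGAGTCA, searched on both strands, stood in 7 of 51 promoters of lower genes (13.7%; Capn6, Gpnmb, Mme, Mmp12, Rdh9, S100a11 and Srxn1), in 1 of 26 of higher genes (3.85%, Serpina1c) and in 5.95% of all 27025. These are descriptions of letters and not of bound sites.

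Genes of MHC class II, which presents peptides on macrophages, dendritic cells and B cells, gave 4 lower and 0 higher of 7 tested, with all 7 estimates below 0 and a median of -1.85. H2-Aa, the alpha chain of the A molecule (chromosome 17, 34501718 to 34506797, minus strand), stood at 106, 141 and 104 CPM in Western null and at 32.7, 24.7 and 17.2 in Western siAATF (-2.21 ± 0.38, adjusted p = 0.00999). H2-Ab1, its beta chain, stood at 110.1, 162 and 102 CPM in Western null and at 37.8, 27.7 and 37.4 in Western siAATF (-1.86 ± 0.39, adjusted p = 0.0365). H2-Eb1, the beta chain of the E molecule, stood at 104, 131 and 108 CPM in Western null and at 33.2, 18.6 and 44.0 in Western siAATF (-1.85 ± 0.32, adjusted p = 0.0102). For all 3 the groups were wholly apart, and the highest library labelled siAATF did not reach 50% of the lowest null library. Cd74, the invariant chain that escorts these molecules, stood at 364, 420.1 and 301 CPM in Western null and at 123, 59.9 and 102 in Western siAATF (-1.93 ± 0.39, adjusted p = 0.0287). H2-Aa and H2-Eb1 were called whichever library was left out; the count of 4 fell to 2 without any 1 of the Western libraries except Western siAATF replicate 3, without which it was 4. Of 21 MHC class I and interferon genes on the list 0 passed (median -0.19). Outside that list the class I gene H2-Q1 (-2.08 ± 0.47), the ubiquitin-like Ubd (-2.09 ± 0.45) and the interferon-induced Ifi27l2b (-1.40 ± 0.30) were called lower. Reads of H2-Q1 could have been shared with other class I copies in counting, so its level is uncertain.

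Class II genes share a conserved promoter in which the Y box binds the NF-Y complex, and it is shown for both class II genes called in every leave-one-out fit (RefSeq, GRCm38.p6, H2-Aa at chr17:34287774-34288073 on the minus strand and H2-Eb1 at chr17:34305617-34305916 on the plus strand, 5′ to 3′ along the gene, with the letters CTGATTGG in capitals).
H2-Aa: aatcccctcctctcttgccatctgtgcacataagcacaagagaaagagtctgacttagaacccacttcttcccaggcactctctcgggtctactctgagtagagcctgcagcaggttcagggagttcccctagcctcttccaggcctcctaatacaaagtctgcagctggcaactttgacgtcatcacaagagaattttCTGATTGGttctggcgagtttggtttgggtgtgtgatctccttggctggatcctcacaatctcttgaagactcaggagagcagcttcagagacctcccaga
H2-Eb1: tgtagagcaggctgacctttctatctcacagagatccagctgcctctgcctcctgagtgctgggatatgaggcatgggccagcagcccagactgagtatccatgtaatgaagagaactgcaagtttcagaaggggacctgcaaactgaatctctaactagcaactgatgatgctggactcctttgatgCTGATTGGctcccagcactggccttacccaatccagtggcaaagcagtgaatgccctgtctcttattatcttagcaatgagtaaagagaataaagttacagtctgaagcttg
The letters begin 51 bases before the start of H2-Aa and 62 before that of H2-Eb1. On either strand they stood in 4.7% of all promoters, in 5 of 51 of the lower genes (9.8%; also Klf6, Slco1a4 and Spp1) and in 0 of 26 of the higher genes. No promoter was listed for H2-Ab1, and Cd74 was not among the lower genes with these letters.

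Matrix genes gave few calls, in lists of basement membrane, of microfibrils and proteoglycans and of proteolysis. Nid1, for nidogen, which links laminin and collagen IV, stood at 69.1, 61.7 and 68.1 CPM in Western null and at 21.2, 18.4 and 26.0 in Western siAATF (-1.61 ± 0.25, adjusted p = 0.00372) and was called whichever library was left out. Col6a3, a chain of microfibrillar collagen VI, stood at 150.1, 91.3 and 130.0 CPM in Western null and at 39.6, 19.5 and 47.5 in Western siAATF (-1.81 ± 0.34, adjusted p = 0.0169). Bgn, for the proteoglycan biglycan, stood at 158, 96.8 and 131 CPM in Western null and at 44.0, 39.3 and 55.0 in Western siAATF (-1.49 ± 0.25, adjusted p = 0.00827). Fibrillin, the scaffold of microfibrils, is encoded by Fbn1, which had -1.28 ± 0.26, adjusted p = 0.0283, and Adamtsl2, whose secreted product binds it, had -1.93 ± 0.43, adjusted p = 0.045. Of 20 genes of collagens IV and VI and basement membrane 2 were lower (median -0.78, 18 estimates below 0), of 25 proteoglycan, microfibril and matricellular genes 2 (median -1.02, 23 below 0), and of 22 genes of crosslinking and proteolysis 2, Mmp12 and Adamtsl2 (median -0.98, 20 below 0). With all libraries 0 members of these lists were higher. With 1 library left out the lower counts ranged from 1 to 5, 0 to 4 and 1 to 4. The largest were those without Western siAATF replicate 3, when 1 proteoglycan gene was also higher, and the proteoglycan count was 0 without Western null replicate 1 or 3. Outside the lists, 2 genes of the carboxypeptidase family were lower. Cpxm1 stood at 17.8, 9.54 and 8.98 CPM in Western null and at 1.55, 0.908 and 2.20 in Western siAATF (-2.99 ± 0.58, adjusted p = 0.0196). Cpz fell from 44 counts in Western null to 1 (ratio 30.6, 95% counting interval 5.22 to 1237). Fras1, an adhesion protein of epithelial basement membranes, was higher (1.67 ± 0.37).

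The fibrillar collagens had 0 of 7 genes called, with a median of -1.33. Col1a1, the main chain of scar collagen, stood at 349.6, 199.7 and 264 CPM in Western null and at 48.7, 11.6 and 123 in Western siAATF. All 3 Western siAATF libraries were below all 3 null libraries, but replicates 2 and 3 were over 10 times apart, and the gene did not pass (-2.17 ± 0.77, adjusted p = 0.316). Col3a1 stood at 591, 467 and 542 CPM in Western null and at 141, 56.3 and 278 in Western siAATF (-1.76 ± 0.59, adjusted p = 0.27), and Col1a2 had -1.64 ± 0.58, adjusted p = 0.301. Without Western siAATF replicate 3 the list had 2 lower genes, Col1a2 among them (-2.47 ± 0.52, adjusted p = 0.0168), and without any other Western library it had 0. Acta2, which marks activated stellate cells, did not pass (-1.33 ± 0.78, adjusted p = 0.6) and overlapped between groups. Of 15 stellate cell and myofibroblast genes 0 passed (median -0.37), with 1 higher without Western siAATF replicate 2 and 1 lower without its replicate 3. In that list Des and Tpm2 are also genes of skeletal muscle and were high in the library with muscle transcripts (175 and 262 CPM in Western siAATF replicate 1, against 3.95 to 10.2 and 17.1 to 20.1 in Western null).

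Enzymes that conjugate electrophiles to glutathione were among the lower genes: of 19 glutathione S-transferase genes 6 passed, all lower (median -0.71, 12 estimates below 0). Gstm3 (chromosome 3, 107871012 to 107876490, minus strand) stood at 45.9, 39.5 and 68.4 CPM in Western null and at 1.77, 3.63 and 0.880 in Western siAATF (-4.51 ± 0.44, adjusted p = 4.69e-05), with no overlap. The microsomal Mgst3 stood at 36.5, 24.5 and 32.7 CPM in Western null and at 9.07, 5.67 and 6.16 in Western siAATF (-2.15 ± 0.32, adjusted p = 0.00348). Gstm1, an abundant hepatic mu-class enzyme, stood at 1105, 978 and 1104 CPM in Western null and at 187, 194 and 503 in Western siAATF (-1.85 ± 0.33, adjusted p = 0.0118), and Gsta4, which clears the lipid peroxidation product hydroxynonenal, at 37.5, 56.6 and 49.5 CPM in Western null and at 6.41, 7.49 and 20.2 in Western siAATF (-2.15 ± 0.37, adjusted p = 0.00956). In both, replicate 3 of Western siAATF was the highest of its group, between the other 2 libraries and the null level. Gstm2 had -1.35 ± 0.30. For Gsta1, 82 counts in Western null (8.39, 3.41 and 4.94 CPM) stood against 0, which with a floor of 3 counts over the group is at least 19.0-fold lower. The count of 6 became 3, 5 and 2 without Western null replicates 1, 2 and 3, and 2, 5 and 10 without Western siAATF replicates 1, 2 and 3. Copies within the mu and alpha classes are near-identical, so reads could have been split among them and single members are uncertain.

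Of the neighbours of this pathway, a few passed. Gss, which makes glutathione, had -0.99 ± 0.22, adjusted p = 0.0441, although 85.5% of its span overlaps another gene, and Srxn1, which repairs oxidised peroxiredoxins, had -1.32 ± 0.30, adjusted p = 0.047. Srxn1 was the only 1 of 24 genes on the NRF2 target list to pass (median -0.42). The 6 called glutathione S-transferase genes were kept in their own list and are not counted among these 24. Without Western siAATF replicate 3 the NRF2 list had 1 higher and 7 lower, and without any 1 of the other Western libraries it had 0. Nqo1, a quinone reductase and a classic target, stood at 12.3, 12.6 and 12.03 CPM in Western null and at 3.10, 4.31 and 4.84 in Western siAATF and did not pass (-1.61 ± 0.43, adjusted p = 0.11). Ephx1, which opens epoxides, stood at 670.0, 520.3 and 684 CPM in Western null and at 169, 201 and 516 in Western siAATF (-1.08 ± 0.36, adjusted p = 0.23). The core letters of the antioxidant response element, TGACNNNGC on either strand, stood in 14% of all promoters, in 11.8% of those of lower genes and in 11.5% of those of higher genes.

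Some cytoskeletal and calcium-binding genes were lower. Tubb2a, a beta-tubulin, stood at 144, 76.3 and 86.8 CPM in Western null and at 13.5, 12.9 and 30.8 in Western siAATF (-2.46 ± 0.34, adjusted p = 0.00179). Haus8, a subunit of the augmin complex that branches microtubules, stood at 40.5, 33.1 and 34.2 CPM in Western null and at 7.74, 5.22 and 5.28 in Western siAATF (-2.54 ± 0.30, adjusted p = 0.000442). S100a11, a calcium-binding partner of annexins, stood at 41.0, 21.5 and 23.4 CPM in Western null and at 3.54, 2.50 and 5.28 in Western siAATF (-2.96 ± 0.42, adjusted p = 0.00196). All 3 were apart between the groups and were called whichever library was left out. The keratin gene Krt8, expressed in hepatocytes and bile ducts, stood at 586, 539 and 737 CPM in Western null and at 252, 264 and 315 in Western siAATF (-1.16 ± 0.23, adjusted p = 0.0196), and the actin-binding Tagln2 had -1.48 ± 0.32. Of 17 annexin and S100 genes 2 were lower and 0 higher (median -0.42), 5 and 2 without Western siAATF replicate 3. Of 21 actin and tubulin genes 1 was lower (median -0.47, 19 estimates below 0). Anxa2 stood at 117, 81.4 and 97.4 CPM in Western null and at 14.2, 10.4 and 73.5 in Western siAATF and did not pass (-1.64 ± 0.65, adjusted p = 0.373), replicate 3 lying near the null level.

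Growth and cell cycle regulators were also among the lower genes. Cdkn1a, the cyclin-dependent kinase inhibitor p21, stood at 61.2, 21.5 and 27.6 CPM in Western null and at 3.76, 1.13 and 9.68 in Western siAATF (-3.04 ± 0.64, adjusted p = 0.0444). Its 3 Western siAATF libraries ranged from 1.13 to 9.68 CPM, all below the null libraries, and the call was lost without any 1 of the Western libraries but Western siAATF replicate 3. Ccnd1, for cyclin D1, stood at 44.4, 68.1 and 60.7 CPM in Western null and at 16.8, 20.4 and 21.6 in Western siAATF (-1.57 ± 0.26, adjusted p = 0.00869). Jun stood at 78.0, 58.6 and 53.9 CPM in Western null and at 15.3, 9.76 and 29.9 in Western siAATF (-1.83 ± 0.39, adjusted p = 0.037), and Klf6, an injury-induced transcription factor, at 39.0, 35.4 and 40.0 CPM in Western null and at 13.05, 15.0 and 10.1 in Western siAATF (-1.57 ± 0.27, adjusted p = 0.00889). Mapk3, which encodes the kinase ERK1, had -1.40 ± 0.30, while Fos (-1.93 ± 0.81, adjusted p = 0.382) and Myc (-0.93 ± 0.42, adjusted p = 0.444) did not pass. Of 24 p53 target genes 1 passed, Cdkn1a (median -0.54), and of 19 cell cycle genes 1, Ccnd1 (median -0.52, 18 estimates below 0), which was lost without Western null replicate 3 or Western siAATF replicate 1. The p53 list had 2 lower genes without Western siAATF replicate 3. Mki67, which marks proliferation, did not pass (-0.80 ± 0.49, adjusted p = 0.616) and overlapped between groups. Aatf is known to bind regulators of the cell cycle; of 29 genes of its ribosome assembly partners and of ribosome biogenesis 0 passed (median 0.32, 26 estimates above 0).

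Called genes for receptors and growth factors, grouped after their values were seen, lay in both directions. Ephb2, a receptor tyrosine kinase for ephrin-B ligands (chromosome 4, 136374850 to 136563637, minus strand), stood at 43.4, 37.1 and 23.3 CPM in Western null and at 1.11, 1.13 and 0.440 in Western siAATF (-5.12 ± 0.53, adjusted p = 9.05e-05). Nrg1, a growth factor of the EGF family, stood at 25.2, 18.4 and 15.7 CPM in Western null and at 1.99, 1.82 and 1.32 in Western siAATF (-3.46 ± 0.48, adjusted p = 0.00185). The adhesion receptor gene Adgrv1 stood at 30.1, 16.01 and 34.4 CPM in Western null and at 3.54, 3.63 and 6.60 in Western siAATF (-2.62 ± 0.39, adjusted p = 0.00348). These 3 were low in all libraries labelled siAATF and were called whichever library was left out. Also lower were Unc5b, a netrin receptor (-1.95 ± 0.42), Tnfrsf19, a receptor of the TNF family (-1.68 ± 0.35), and Tlr12, a Toll-like receptor (-2.35 ± 0.42). Higher were Egfr, the EGF receptor that hepatocytes carry in large amounts, and Nrp1, a co-receptor for VEGF and semaphorins. Egfr stood at 184, 258 and 386 CPM in Western null and at 1233, 1779 and 426 in Western siAATF (2.05 ± 0.43, adjusted p = 0.0354): replicates 1 and 2 were 3 times or more above every null library, while replicate 3 was close to the highest of them. Nrp1 stood at 58.3, 65.8 and 59.1 CPM in Western null and at 115, 125 and 129.8 in Western siAATF (1.01 ± 0.21, adjusted p = 0.0274), with all 3 replicates close together.

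Among other membrane and surface proteins, Ly6d, a lipid-anchored surface protein, stood at 72.1, 35.1 and 42.8 CPM in Western null and at 4.64, 5.67 and 15.0 in Western siAATF (-2.64 ± 0.43, adjusted p = 0.00748). Mme, the peptidase neprilysin, had -1.59 ± 0.30, the tetraspan gene Tm4sf4 -1.36 ± 0.27 and the phospholipid scramblase Plscr1 -1.32 ± 0.26. Abcb1a, a drug efflux pump, stood at 19.3, 18.4 and 27.8 CPM in Western null and at 3.76, 4.54 and 4.84 in Western siAATF (-2.34 ± 0.45, adjusted p = 0.0182), and Slco1a4, an uptake transporter of organic anions, at 33.6, 30.0 and 52.7 CPM in Western null and at 6.63, 6.13 and 1.76 in Western siAATF (-2.93 ± 0.54, adjusted p = 0.0196). The transporters Slc6a13 (-1.07 ± 0.23) and Slc17a4 (-1.33 ± 0.27) were lower by less. Themis, a gene of T cell development, had -1.69 ± 0.35, beside T and NK cell markers that summed to 2.96 to 4.43 CPM in Western null and 2.64 to 7.49 in Western siAATF. Olig1, a transcription factor best known in oligodendrocytes, stood at 7.41, 7.84 and 4.76 CPM in Western null and at 0.442, 0 and 1.76 in Western siAATF (-3.46 ± 0.77, adjusted p = 0.0446), with replicate 2 listed at 0. Fndc10 went from 59 counts in the null libraries to 3 (ratio 13.7, 4.46 to 68.3). The remaining lower genes were Capn6 (-3.34 ± 0.74), Fam83a (-2.78 ± 0.52), Tax1bp3 (-2.53 ± 0.55), the trehalase gene Treh (-2.49 ± 0.51), Rdh9 (-1.59 ± 0.28), Uap1l1 (-1.49 ± 0.31) and Plekha1 (-1.43 ± 0.32). Of these, Rdh9, a short-chain dehydrogenase, stood at 122, 112 and 138 CPM in Western null and at 42.9, 54.5 and 25.1 in Western siAATF (adjusted p = 0.0102).

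Apoa4, a lipoprotein component that rises in the fatty liver, was the only 1 of 19 apolipoprotein and lipoprotein assembly genes to pass (median -0.09); without Western siAATF replicate 3 there were 2. Apoa4 stood at 10263, 6883 and 8276 CPM in Western null and at 1850.3, 1137 and 1147 in Western siAATF (chromosome 9, 46152142 to 46154756, plus strand; -2.62 ± 0.33, adjusted p = 0.000689). The 3 libraries labelled siAATF were close together and far below the null libraries, and still above the chow null libraries (99.8, 203 and 119 CPM). Apoa4 was called in each alternative listed in the closing section.

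Of 36 male-biased liver genes 5 were higher and 0 lower, with a median of 0.77 and 28 estimates above 0. Hsd3b5, a 3-ketosteroid reductase of male mouse liver (chromosome 3, 98525952 to 98552850, minus strand), stood at 0, 1.70 and 0.449 CPM in Western null and at 81.6, 75.3 and 30.4 in Western siAATF (6.54 ± 0.55, adjusted p = 8.39e-06). It was nearly silent in Western null and present in each library labelled siAATF, at levels below those of chow null (258, 230.4 and 197 CPM). Cyp7b1, which hydroxylates oxysterols in the alternative bile acid pathway, stood at 43.0, 30.0 and 48.8 CPM in Western null and at 181, 401 and 147 in Western siAATF (2.58 ± 0.50, adjusted p = 0.0274). Nudt7, a peroxisomal enzyme that degrades coenzyme A, stood at 90.3, 100.2 and 95.02 CPM in Western null and at 277, 323 and 231 in Western siAATF (1.54 ± 0.26, adjusted p = 0.00827), without overlap. The other 2 belong to families of near-identical copies, so reads may have been misassigned among copies. Serpina1e stood at 43.0, 33.1 and 33.7 CPM in Western null and at 1514, 1465 and 93.8 in Western siAATF (4.81 ± 0.78, adjusted p = 0.0163), and the major urinary protein gene Mup21 at 10.9, 8.86 and 16.2 CPM in Western null and at 51.1, 123 and 19.8 in Western siAATF (2.40 ± 0.51, adjusted p = 0.045).

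In Serpina1e and Mup21 replicate 3 lay much nearer the null level than replicates 1 and 2 did. Its relative Serpina1c, outside the male-biased list, stood at 433, 565 and 576 CPM in Western null and at 1215, 1356 and 1171 in Western siAATF (1.25 ± 0.25, adjusted p = 0.0214), and Mup19 stood at 0.494, 0.681 and 0.629 CPM in Western null and at 2.87, 7.04 and 8.80 in Western siAATF (3.25 ± 0.73, adjusted p = 0.045). Other male-biased genes did not pass: Mup20 had -0.57 ± 0.70, adjusted p = 0.831, Cyp2d9 0.71 ± 0.39, adjusted p = 0.574, Elovl3 0.36 ± 0.64, adjusted p = 0.886 and Slco1a1 2.51 ± 0.69, adjusted p = 0.165. The count of 5 became 1, 2 and 1 without Western null replicates 1, 2 and 3, 4 and 2 without Western siAATF replicates 1 and 2, and 11 without its replicate 3. Of 12 female-biased genes 1 was higher, Cyp2c40, with 37 counts against 1 (ratio 53.2, 8.97 to 2156), and 0 were lower (median -0.46). These counts were 1 and 2 without Western siAATF replicate 3, and without any 1 of the other Western libraries 0 and 0. Cyp2c40 was the only called gene whose groups overlapped. The STAT5 letters TTCNNNGAA, searched on both strands because STAT5 carries the growth hormone signal, stood in 9.55% of all promoters, 7.69% of those of higher genes and 7.84% of those of lower genes.

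Some enzymes and transporters of hepatocytes were called higher. Sult2a8, a sulfotransferase for bile acids, stood at 119, 121 and 105 CPM in Western null and at 355, 676 and 390.4 in Western siAATF (2.04 ± 0.31, adjusted p = 0.00353), and the carboxylesterase gene Ces3b at 57.3, 96.4 and 110.3 CPM in Western null and at 254, 260.1 and 383 in Western siAATF (1.76 ± 0.27, adjusted p = 0.00379). Both were apart between the groups and called whichever library was left out. Ces3b was the only 1 of 34 genes of conjugation, esterases and aldehyde enzymes to pass (median -0.19), and without Western siAATF replicate 3 there were 2 higher and 5 lower. The cytochrome P450 gene Cyp2c54 had 1.65 ± 0.34, adjusted p = 0.0312, and of 35 genes of P450 families 1 to 3 it and Cyp2c40 were the 2 that passed (median 0.06). Without Western siAATF replicate 3, 5 were higher and 4 lower (median -0.34), and without any 1 of the other Western libraries 0 passed. Cyp3a11, the main steroid and drug hydroxylase of the list, stood at 1868, 2476 and 5325 CPM in Western null and at 92.4, 269.6 and 1384 in Western siAATF and did not pass (-2.47 ± 0.82, adjusted p = 0.275), but was called without replicate 3 (-4.17 ± 0.57, adjusted p = 0.000935). Kyat1, a kynurenine aminotransferase, stood at 43.4, 27.9 and 34.9 CPM in Western null and at 105, 86.5 and 84.5 in Western siAATF (1.38 ± 0.24, adjusted p = 0.00956), and Slc22a7, an organic anion transporter, at 0, 4.09 and 2.60 CPM in Western null and at 23.9, 26.6 and 11.4 in Western siAATF (3.08 ± 0.65, adjusted p = 0.0447). Adh6-ps1, annotated as a pseudogene of alcohol dehydrogenase, had 1.90 ± 0.33, and Cerkl, related to ceramide kinase, 2.28 ± 0.46. Bile acid genes gave 1 higher (Cyp7b1) and 1 lower (Slco1a4) of 23 (median -0.05), and 3 higher and 4 lower without Western siAATF replicate 3. Without any 1 of the other Western libraries at most 1 passed. Cyp7a1, the rate-limiting enzyme of the classic pathway, did not pass (-0.18 ± 0.36, adjusted p = 0.9).

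Some secreted proteins were called higher as well. C8b, a subunit of the complement attack complex, stood at 29.6, 41.2 and 69.9 CPM in Western null and at 316, 479 and 144 in Western siAATF (2.72 ± 0.42, adjusted p = 0.00509), and was the only 1 of 29 coagulation and complement genes to pass (median 0.48, 26 estimates above 0). The list had 9 higher genes without Western siAATF replicate 3 and 0 without Western null replicate 1. Fga, the fibrinogen alpha chain, stood at 2455, 2307 and 2727 CPM in Western null and at 8464, 8108 and 3696 in Western siAATF (1.44 ± 0.32, adjusted p = 0.0442), and Itih3, a hyaluronan-binding acute phase protein, at 699, 676 and 674 CPM in Western null and at 2741, 3216 and 799 in Western siAATF (1.72 ± 0.37, adjusted p = 0.0373). In each of the 3, replicate 3 was the lowest Western siAATF library, and for Itih3 it lay just above the null libraries. Enho, which encodes adropin, a peptide hormone of the liver, stood at 0, 0 and 0.629 CPM in Western null and at 10.6, 7.04 and 2.64 in Western siAATF (4.08 ± 0.72, adjusted p = 0.0102). Pdia5 and Dnajc12, which encode folding factors, had 1.45 ± 0.33 and 2.61 ± 0.48; Dnajc12 stood at 53.5, 47.0 and 7.92 CPM in Western siAATF against 7.41, 5.45 and 5.57.

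Genes better known from other organs completed the higher set. Grm8, a metabotropic glutamate receptor (chromosome 6, 27275120 to 28135393, minus strand), stood at 0.987, 1.70 and 0.539 CPM in Western null and at 11.5, 14.3 and 9.68 in Western siAATF (3.73 ± 0.52, adjusted p = 0.00179), against 28.5, 22.0 and 36.0 in chow null. Cadm4, a cell adhesion molecule, stood at 0.494, 0.681 and 1.26 CPM in Western null and at 11.1, 10.2 and 6.16 in Western siAATF (3.22 ± 0.41, adjusted p = 0.000951), against 10.97, 11.9 and 9.05 in chow null. Both were apart between the groups and near silent in Western null. Acpp, an acid phosphatase, stood at 0.987, 1.70 and 1.80 CPM in Western null and at 17.5, 20.2 and 6.16 in Western siAATF (3.20 ± 0.53, adjusted p = 0.00797). Crybb3, a lens crystallin, stood at 7.30, 3.63 and 4.40 CPM in the libraries labelled siAATF, 59 counts against 2 (ratio 42.4, 11.2 to 358). The sodium channel subunit gene Scnn1a had 1.30 ± 0.29, the transducin gene Gnat1 1.57 ± 0.36 and Nlrp5-ps, a pseudogene, 2.52 ± 0.49. A further 4 higher genes and 1 lower gene carry predicted-gene symbols. Prtn3, a protease of neutrophil granules, stood at 0, 1.02 and 0.0898 CPM in Western null and at 44.2, 25.9 and 1.76 in Western siAATF (6.39 ± 1.15, adjusted p = 0.0196) and was high in the same libraries as the other granule genes. Of the 104 called genes 31 overlap another gene in part, as 45.9% of the genes tested do, and reads in such overlaps are missing from both; Plekha1 (57.3% of its span), Abcb1a (32.6%) and Nrp1 (31.6%) overlap most beside those already named.

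Where the 3 libraries labelled siAATF differed among themselves, several groups of genes did so together. The acute phase genes, which the liver secretes during inflammation, were high in replicates 1 and 2 and not in replicate 3. Saa1, serum amyloid A, stood at 191, 145 and 284 CPM in Western null and at 8506, 5138 and 61.2 in Western siAATF (4.46 ± 1.40, adjusted p = 0.27). Apcs, serum amyloid P, stood at 21.2, 28.6 and 31.0 CPM in Western null and at 234, 479.8 and 8.80 in Western siAATF (3.15 ± 0.98, adjusted p = 0.254), and Fgl1, a fibrinogen-like hepatokine, at 225, 209 and 184 CPM in Western null and at 1518, 2078 and 104 in Western siAATF (2.59 ± 0.80, adjusted p = 0.241). In each of these, replicates 1 and 2 lay above every null library and replicate 3 below every null library. With all libraries 2 of 30 acute phase genes were higher (Fga and Itih3, median 1.31); without replicate 3 there were 16 (median 1.60; 1.62% of all genes were called higher in that fit), and without any 1 of the other Western libraries 0. Without replicate 3, Apcs had 3.69 ± 0.32 (adjusted p = 3.07e-06) and Fgl1 3.12 ± 0.32 (adjusted p = 1.2e-05).

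Genes of neutrophil granules were high in the same 2 libraries. S100a9, an abundant neutrophil protein, stood at 1.97, 2.73 and 1.26 CPM in Western null and at 53.3, 88.5 and 1.76 in Western siAATF (4.76 ± 1.12, adjusted p = 0.113), and Ngp, a granule protein, at 0, 0.341 and 0.0898 CPM in Western null and at 22.6, 17.0 and 1.32 in Western siAATF. Ltf, for lactoferrin, had 253 counts in the libraries labelled siAATF, of which replicate 3 held 1, and the null libraries held 1. Chaperones of the endoplasmic reticulum shared part of the pattern: Hsp90b1 stood at 542, 586 and 614 CPM in Western null and at 1678, 2335 and 706 in Western siAATF (1.44 ± 0.38, adjusted p = 0.113). Among 25 genes of the unfolded protein and integrated stress responses 0 passed with all libraries (median 0.37, 17 estimates above 0 and 8 below). Without replicate 3, 8 were higher and 1 lower. Atf3, the lowest of these 25, did not pass (-1.78 ± 0.53, adjusted p = 0.16, edgeR). It stood at 8.39, 7.84 and 9.07 CPM in Western null and at 3.10, 2.95 and 0.880 in Western siAATF. Of the neutrophil and monocyte list 0 of 8 passed with all libraries and 2 without replicate 3. The part of these cells in the higher secreted genes was not tested.

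Fatty acid oxidation and lipid storage divided the libraries the other way. Ehhadh, a bifunctional enzyme of peroxisomal oxidation and a target of PPAR-alpha, stood at 812, 763 and 635 CPM in Western null and at 151, 171 and 8144 in Western siAATF (1.94 ± 1.28, adjusted p = 0.664). Replicate 3 was over 10 times every null library, while replicates 1 and 2 were below every null library. Acaa1b, the peroxisomal thiolase, stood at 2326, 2589.6 and 2282 CPM in Western null and at 469, 378 and 7066 in Western siAATF, and Acot2, a mitochondrial acyl-CoA thioesterase, at 71.1, 46.7 and 33.1 CPM in Western null and at 4.42, 3.40 and 415 in Western siAATF. The same held for the omega-hydroxylase Cyp4a10 (99.1, 172 and 3797 CPM in Western siAATF, 774, 481 and 498 in Western null) and for Crat, carnitine acetyltransferase (37.4, 20.9 and 477 and 105, 88.3 and 90.7). Ppara itself lay in the same order over a narrower range (292, 328 and 509 CPM in Western siAATF, 336, 421 and 423 in Western null). Of 27 genes of fatty acid oxidation and ketogenesis 0 passed with all libraries (median 0.03); without replicate 3, 10 were lower and 0 higher (1.71% of all genes were called lower in that fit), and 0 passed without any 1 of the other Western libraries. Ehhadh then had -2.21 ± 0.27 (adjusted p = 5.23e-05) and Acaa1b -2.52 ± 0.28 (adjusted p = 2.56e-05).

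Lipid droplet genes behaved alike. Plin2, the droplet coat protein of hepatocytes, stood at 861, 540.1 and 579.6 CPM in Western null and at 186, 195 and 1805 in Western siAATF (0.14 ± 0.71, adjusted p = 0.962), and Cidec, which fuses droplets, at 139, 147 and 140.3 CPM in Western null and at 5.97, 12.3 and 131 in Western siAATF (-1.56 ± 0.93, adjusted p = 0.623). Cd36, a fatty acid uptake receptor, stood at 323, 301 and 251 CPM in Western null and at 83.8, 103 and 366 in Western siAATF (-0.67 ± 0.48, adjusted p = 0.686). In all 3 genes replicates 1 and 2 were below the null libraries, and replicate 3 was near or above them. Of 23 genes of lipid droplets and fatty acid uptake 0 passed with all libraries (median -0.10) and 6 were lower without replicate 3 (median -1.03), among them Cidec (-3.98 ± 0.42, adjusted p = 1.33e-05) and Cd36 (-1.65 ± 0.34, adjusted p = 0.00703). Lower levels in 2 libraries were thus not shared by the third, and the difference among them was not tested. Synthesis genes gave 0 of 19 (median -0.07): Fasn, the fatty acid synthase gene, had 0.05 ± 0.38, adjusted p = 0.975, its regulator Srebf1 0.75 ± 0.35, adjusted p = 0.458 and the desaturase gene Scd1 -0.84 ± 0.37, adjusted p = 0.421.

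**Figure D3:**
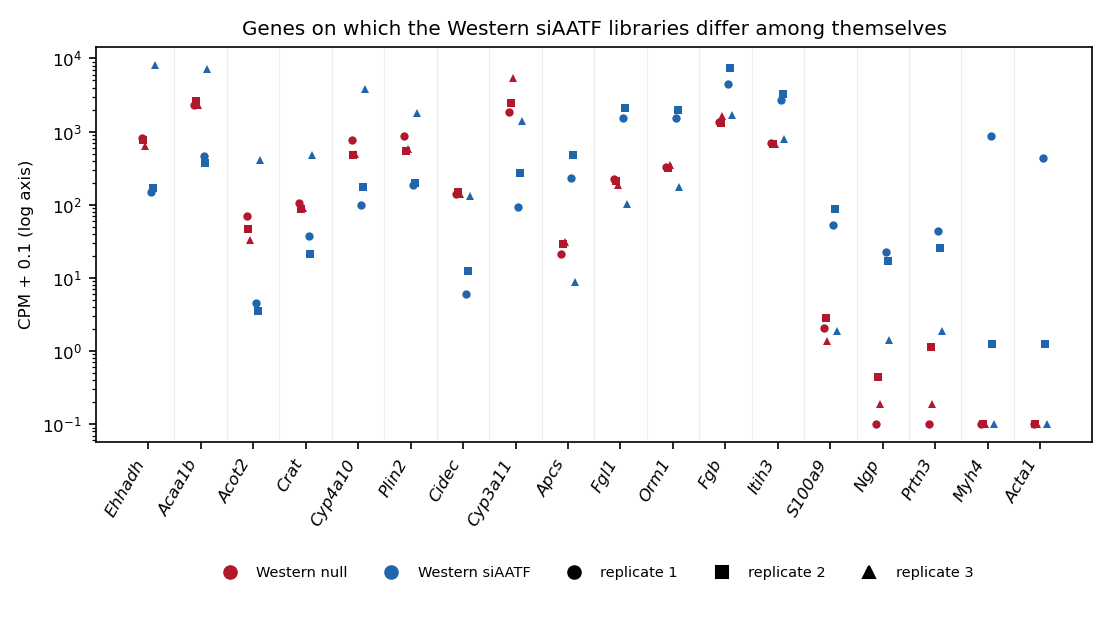
CPM plus 0.1 (log axis) in the 6 Western libraries for 18 genes chosen, after their values were seen, because the 3 Western siAATF libraries (blue) differ among themselves; symbols give the replicate number and red points are Western null. Among the 3 blue points, replicate 3 (triangles) stands highest from Ehhadh to Cyp3a11 and lowest from Apcs to Prtn3, and only replicate 1 (circles) holds Myh4 and Acta1 in quantity.

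Of the 310 genes that gained a call without Western siAATF replicate 3, 165 were higher and 145 lower. Among the 145, that library lay above all 3 null libraries in 71, within their range in 22 and below them in 52. Among the 165, it lay below all null libraries in 52, within their range in 56 and above them in 57. In 123 of the 310 the library thus lay on the other side of the null libraries from the replicates with which the call was made. Within the 104 genes called with all libraries, it was the library nearest the null mean in 56, replicate 1 in 32 and replicate 2 in 16. Over all genes tested the shares were 33.8%, 41.6% and 24.6%.

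Among hepatocyte secreted proteins, a list that shares members with those above, 3 of 32 were higher (Serpina1c, Serpina1e and Fga, median 0.56). The count became 1 without Western siAATF replicate 1, 10 without its replicate 3 and 0 without any 1 of the other Western libraries. Most other lists gave no call. Liver endothelial genes (0 of 17, median -0.20), TGF-beta genes (0 of 15, median -0.11), sugar and glucose genes (0 of 21, median -0.08), cholesterol synthesis and uptake genes (0 of 25, median 0.47, 22 estimates above 0), clock genes (0 of 21, median 0.12), pericentral genes (0 of 15, median -0.05), periportal genes (0 of 21, median 0.27) and hepatocyte transcription factors (0 of 19, median 0.15) had none. When Western siAATF replicate 3 was left out, 3 cholesterol genes and 1 pericentral gene were higher. Lysosome genes had 1 of 26 lower, Cd63 (median -0.31), and cholangiocyte and ductular genes 1 of 9, Krt8 (median -1.16), which was lost without any 1 of the Western libraries except Western siAATF replicate 3. Among genes often measured in steatohepatitis, Tgfb1 (-0.12 ± 0.35, adjusted p = 0.935), Cyp2e1 (0.01 ± 0.25, adjusted p = 0.994), Fgf21 (-1.59 ± 1.06, adjusted p = 0.659) and Ddit3 (0.37 ± 0.41, adjusted p = 0.803) did not pass. Tnf, Ccl2 and Pnpla3 lay under the low-count filter: the null libraries held 4, 23 and 6 counts of them, and those labelled siAATF 2, 2 and 21. Il1b, whose gene lies inside another, is listed at 0, as are all 10400 such genes.

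**Figure D4:**
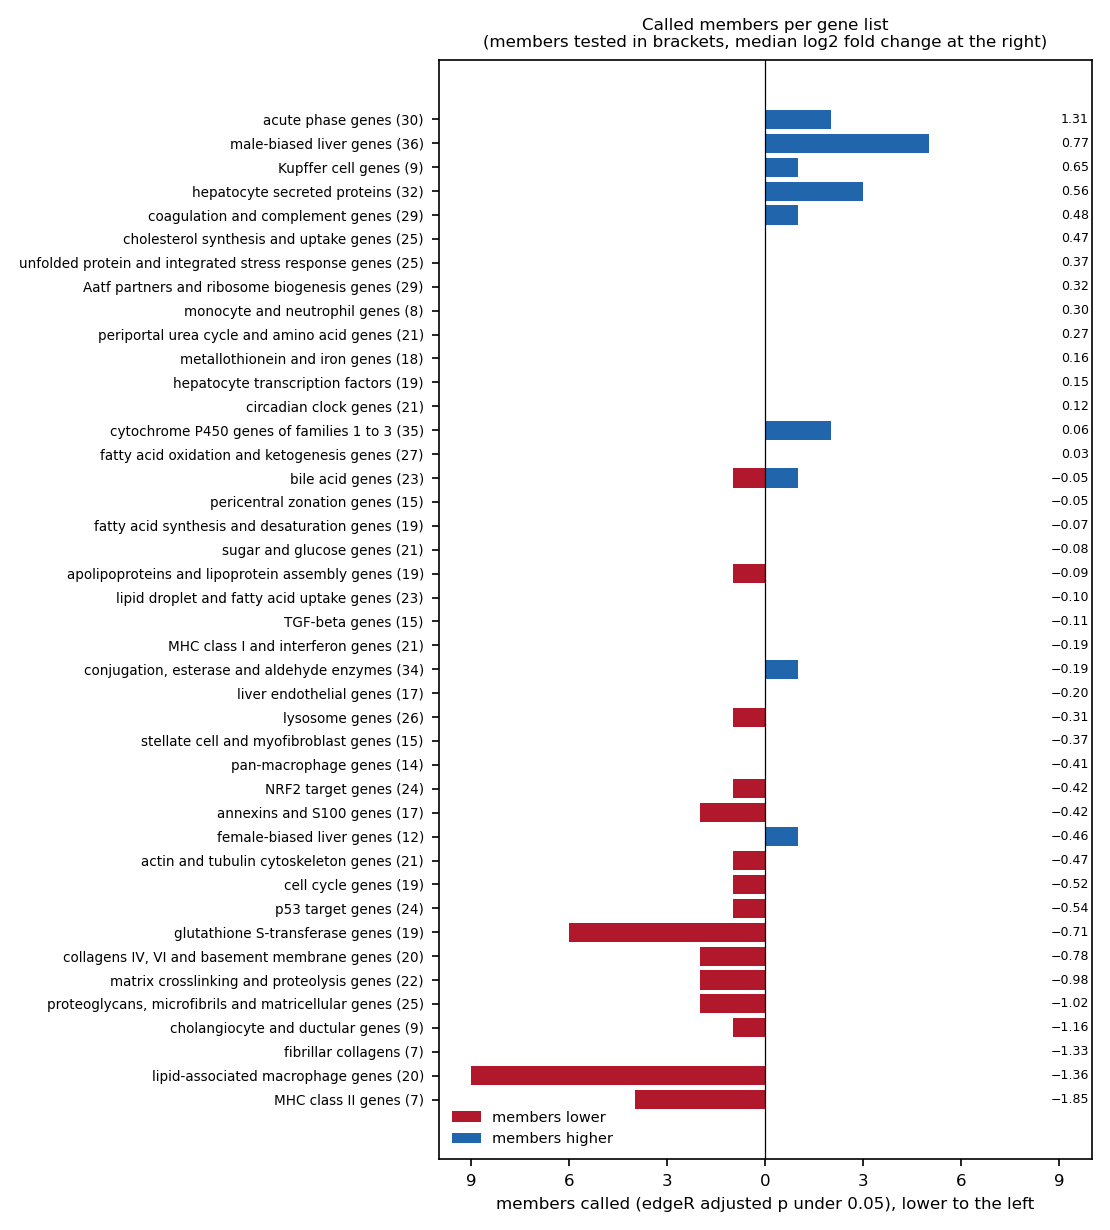
Number of called members per list with at least 5 genes tested (bars, lower members to the left in red, higher to the right in blue), with the number tested in brackets and the median log2 fold change at the right. Lipid-associated macrophage genes (9 lower), glutathione S-transferases (6) and MHC class II genes (4) reach farthest to the left, and male-biased genes (5 higher) farthest to the right; the lists overlap in part, and 45 of the 104 called genes belong to any of them.

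On chow the same vector gave 0 called genes of 11934 (0%) by edgeR's quasi-likelihood test, with 285 genes at an unadjusted p under 0.05. Whether the effect differed between diets was tested as an interaction, which uses the same Western libraries, and 23 genes passed (0.193%); all 23 were among the 104, and 4 carry predicted-gene symbols. For Hsd3b5 the effect on the Western diet exceeded that on chow by a log2 value of 6.48 ± 0.66 (adjusted p = 0.000278); chow libraries stood at 258, 230.4 and 197 CPM with the null vector and 187, 270.2 and 255 with siAATF. Gstm3 differed by -4.39 ± 0.56 (adjusted p = 0.00363), with 11.3, 5.08 and 12.7 and 7.67, 12 and 8.36 CPM on chow. Haus8 differed by -3.38 ± 0.46 (adjusted p = 0.00476) and Apoa4 by -3.08 ± 0.45 (adjusted p = 0.00837). Both were far lower in chow null than in Western null, which left less room for a fall on chow. Haus8 stood at 1.83, 2.26 and 1.39 CPM in chow null and Apoa4 at 99.8, 203 and 119. The part of these low levels in the difference was not tested. For Mmp12 (-4.36 ± 2.44, adjusted p = 0.619) and the class II gene H2-Aa (-1.34 ± 0.54, adjusted p = 0.464) the difference did not pass. The count of 23 became 4, 9 and 4 without Western null replicates 1, 2 and 3, and 16, 17 and 295 without Western siAATF replicates 1, 2 and 3.

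**Figure D5:**
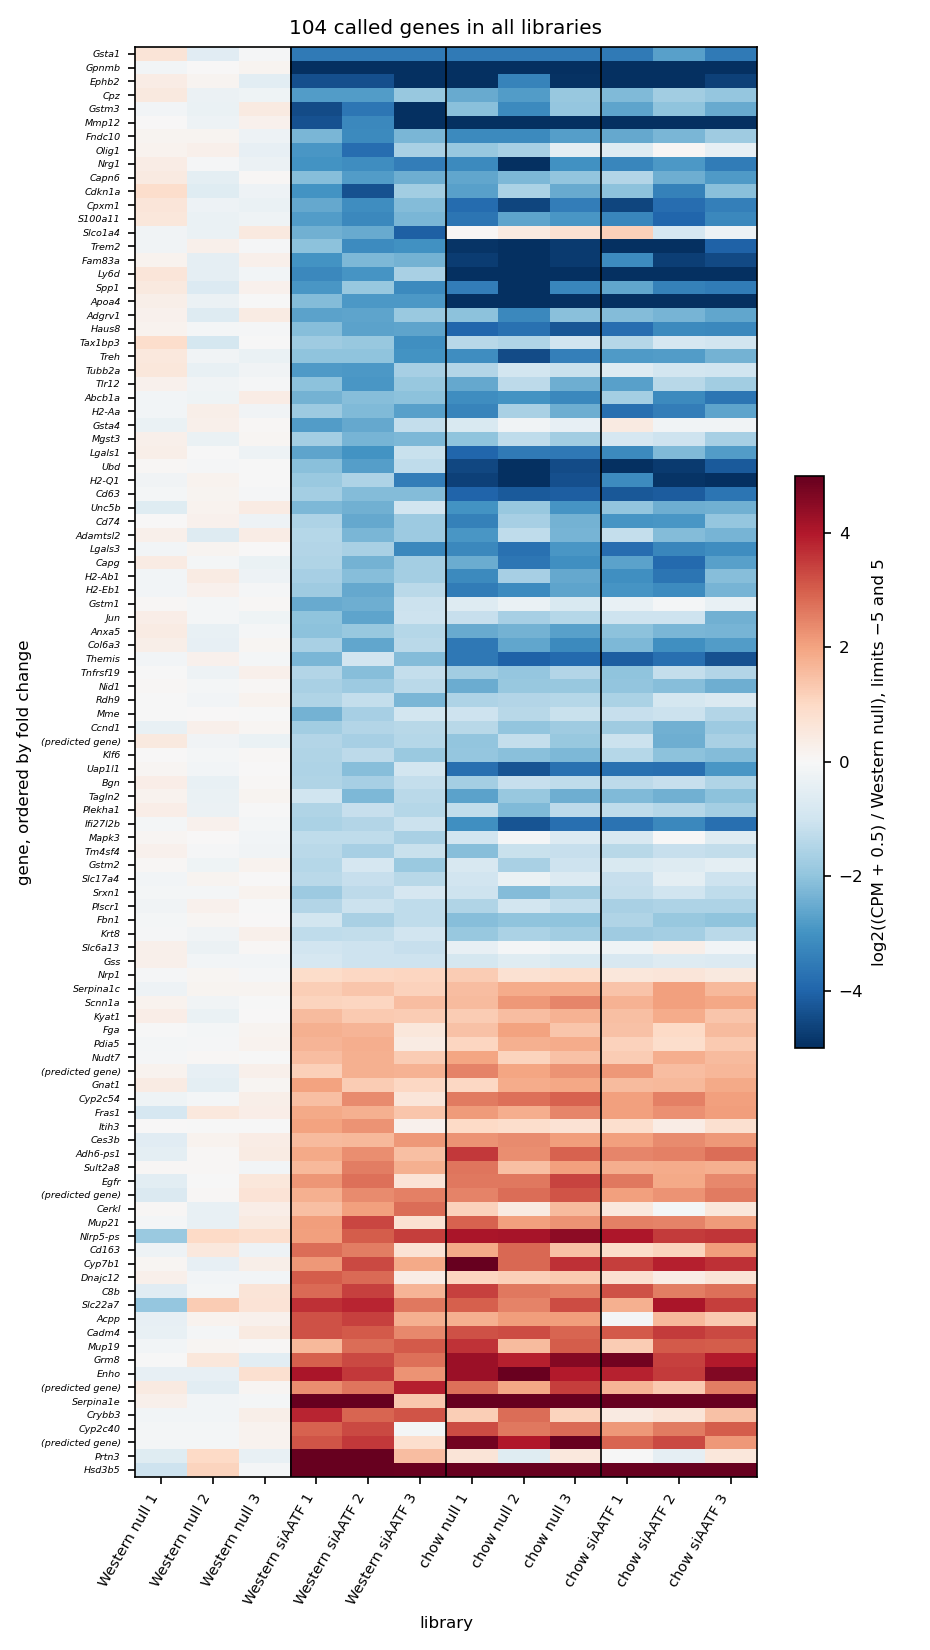
Log2 of CPM plus 0.5 relative to the mean log2 value of the 3 Western null libraries (colour scale limited at -5 and 5) for the 104 called genes (rows, ordered by fold change) in all 12 libraries (columns, by group). Western siAATF columns are blue in the 67 lower rows and red in the 37 higher rows by selection; replicate 3 is paler in rows such as Serpina1e, Prtn3 and Itih3, and the 6 chow columns, which did not enter the contrast, are shown for level.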

How the data were processed

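The authors deposited 1 table of read counts per gene for the 12 libraries. Reads had been processed with STAR 2.7.11, featureCounts 2.0.1, R 4.3.2 and DESeq2 1.42.0 on GRCm39, per the submitters' processing notes. A SMART-Seq kit was used to build the libraries, per the labels. For strand and multi-mapping, settings were not given in the sources used here. Its rows count whole gene spans, and all 10400 genes inside another gene are at 0.

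From the deposited counts, genes were filtered with filterByExpr and library sizes scaled with TMM (edgeR 4.0.16, R 4.3.3). 1 robust quasi-likelihood fit of 12 libraries with 4 group means (8 residual degrees of freedom) gave log2 fold changes with standard errors, and p-values adjusted by Benjamini-Hochberg over 11934 genes, with a threshold of 0.05. The vector effect was also tested as a diet by vector interaction. The fit was tested on simulated counts: at a true log2 change of 2, 73.2% of 97 changed genes were recovered, and at 1, 12.1% of 99. Apart from these changes, all 12 simulated libraries shared 1 mean and 1 spread per gene. The larger differences among the real Western siAATF libraries were not simulated, so these shares may not hold for them. Alternatives used DESeq2 1.42.0, limma 3.58.1 (voom) and other filters, scalings and samples. Ratios of summed counts carry a 95% interval for counting error only, since reads have no molecular identifiers, and the floor for a count of 0 is 3 counts.

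Named genes are Aatf, all called genes (predicted symbols as counts only), up to 4 members of each list by adjusted p, 22 genes of steatohepatitis, and up to 10 gained or lost when a library is left out; genes in the account of single libraries were chosen after their values were seen. Members and lists were chosen with earlier results of these data known. Promoter sequences are from RefSeq on GRCm38.p6, matched by symbol.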

Additional observations from a re-analysis of the deposited data

Results flagged for a closer look

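For 23 genes the effect of the vector differed between the diets by the interaction test, in edgeR's quasi-likelihood fit. The values below are the log2 effect on the Western diet minus that on chow, for the 19 genes without a predicted-gene symbol. All 3 libraries of each Western group and of each chow group enter each value, and the interaction shares its Western libraries with the comparison reported above.

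The difference was positive for 8 genes that were higher in Western siAATF. It was 6.48 for Hsd3b5, 4.43 for Enho, 4.06 for Acpp, 3.87 for Grm8 and 3.27 for Cerkl. It was 3.01 for Cadm4, 2.39 for Sult2a8 and 2.33 for Adh6-ps1.

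The difference was negative for 11 genes that were lower in Western siAATF. Gpnmb had -6.17, Gstm3 -4.39, Nrg1 -3.66, Haus8 -3.38, Lgals1 -3.32 and Apoa4 -3.08. Tubb2a had -2.77, Mgst3 -2.73, Gsta4 -2.66, Anxa5 -2.15 and Rdh9 -2.07. On chow the log2 fold change of these 11 genes ranged from -0.11 (Gstm3) to 1.20 (Lgals1), and 0 of them passed there. Some had little room to fall on chow. Gpnmb had 5 counts over the chow null libraries and 6 over the chow siAATF libraries, so a fall there could hardly be measured. Haus8 stood at 1.83, 2.26 and 1.39 CPM in chow null.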

How the results depend on the processing

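Of the called genes, 104 kept their call with DESeq2 and with no low-count filter, 103 with RLE size factors, 101 with the 18S gene removed, 87 with a filter of 5 CPM, 75 with limma-voom, 48 with the 6 Western libraries alone and 27 with counts thinned to equal depth. Of the 104, 0 changed direction in any alternative run, and 14 were called in each alternative that tested them. The counts of higher and lower genes became 385 and 187 with no filter, 126 and 159 with DESeq2, 20 and 70 with limma-voom, 16 and 37 with the 6 Western libraries alone, 23 and 49 with overlapping genes left out and 12 and 15 after thinning. The interaction count of 23 became 331, 124, 9 and 3 with no filter, DESeq2, limma-voom and thinning, 13 with the stricter filter and 14 with overlapping genes left out. With 1 library left out, higher genes ranged from 6 to 201, lower genes from 17 to 212 and interaction genes from 4 to 295. Some settings held fewer genes or libraries, and why these counts move was not tested.

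Deviations of same-numbered Western libraries correlated at 0.0471, -0.0146 and -0.0719 over 11934 genes. Those of differently numbered libraries ran from -0.0998 to 0.152. With deviations from means of 3 libraries, these values cannot decide whether the replicate numbers pair the samples. With the replicate block 22 genes were higher and 42 lower, and 14 passed the interaction.

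The estimate for Aatf ranged from -0.09 (without Western null replicate 2) to 0.19 with 1 library left out. For 10 named genes of lipid metabolism not called with all libraries, the estimate turned negative without Western siAATF replicate 3 and passed the threshold there. That estimate was the lowest of the leave-one-out values of each gene, and the highest is given beside it: Acaa1b -2.52 to 0.65, Acot1 -2.96 to 3.38, Acot2 -3.66 to 2.07, Acot3 -3.80 to 2.87, Cidea -3.66 to 1.05, Crat -1.71 to 1.43, Cyp4a10 -2.12 to 1.76, Ehhadh -2.21 to 2.50, Plin2 -1.80 to 0.60 and Retsat -1.30 to 1.39. Others, such as Elovl3 and Cyp4a31, turned negative in that fit without passing. Depth limits genes near the floor of 3 counts.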

Other observations

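Further genes, chosen after their values were seen, varied between single libraries. Cyp2b9, a cytochrome P450 that rises in fatty male liver, stood at 45.9, 37.5 and 28.7 CPM in Western null and at 0, 0.227 and 328 in Western siAATF, so that replicate 3 was above and replicates 1 and 2 below every null library. Its relative Cyp2b10 had 21 counts over the null libraries and 0 over those labelled siAATF, which is at least 4.87-fold lower, and did not pass (adjusted p = 0.147, edgeR). Krt23, a keratin induced in steatohepatitis, stood at 1.97, 2.73 and 4.58 CPM in Western null and at 0.221, 0.454 and 67.8 in Western siAATF. Slc27a1, a fatty acid transport protein of muscle and fat, stood at 22.7, 20.1 and 13.6 CPM in Western null and at 15.9, 6.58 and 374 in Western siAATF. Lcn2, a siderophore-binding acute phase protein, stood at 96.3, 108 and 87.3 CPM in Western null and at 684, 634 and 10.6 in Western siAATF, with replicates 1 and 2 high and replicate 3 low.

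The muscle transcripts of Western siAATF replicate 1 included Mb, for myoglobin, at 139.8 CPM, against 0.454 and 0.440 in replicates 2 and 3 and 0 in Western null. Summed haemoglobin and Alas2 levels, which mark erythroid cells, ran from 79.8 to 331 CPM in Western null and from 43.3 to 188 in Western siAATF, and 0 of 4 such genes passed. Ccl2, a chemokine that draws monocytes, had a ratio of summed counts of 8.003 (95% counting interval 1.98 to 70.03), lower in the libraries labelled siAATF; it lay under the low-count filter and was not tested.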
